A study of Mus musculus with 9 samples.

Results

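SR proteins, hnRNP proteins and the kinases that phosphorylate SR proteins decide which exons a transcript keeps, and their own transcript levels were compared here in hair follicle stem cells of food-restricted and freely fed mice. The members were the genes whose symbol starts with Srsf and a digit or with Hnrnp, together with Tra2a, Tra2b, Clk1 to Clk4, Srpk1 and Srpk2. This gave 38 of the 35006 gene symbols counted, with 13 SR and Tra2 genes, 19 hnRNP genes and 6 kinase genes. The symbol of Hnrnpa1l2-ps marks it as a pseudogene. The cells carried the surface antigens CD34 and integrin alpha6, which mark the bulge of the hair follicle, and were sorted from C57BL/6J mice housed singly. In the dietary restriction group (DR, 4 libraries) each mouse received daily 70% of the food eaten by mice matched for weight and gender. The ad libitum group (AL, 5 libraries) ate without limit. Cells of 3 mice were pooled per group before sorting, and the labels give no age, sex or hair cycle stage. They name a pair of animal facilities without saying which mice came from which, and do not say whether each library had its own pool. The p-values below therefore measure the spread between libraries, which may be partly technical.

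SR proteins carry an RNA recognition motif and a tail rich in arginine and serine, bind enhancer sequences in exons and recruit the spliceosome. The hnRNP proteins coat new transcripts, and many of them act against SR proteins at the same exons. Srpk kinases phosphorylate the tails of SR proteins in the cytoplasm, which sends them to the nucleus, and Clk kinases phosphorylate them there, which releases them from nuclear speckles. Many genes of the families limit their own level by splicing in a poison exon, an exon with a stop codon that sends the transcript to nonsense-mediated decay. Gene counts do not part such transcripts from productive ones. The GENCODE M21 annotation listed a transcript of the nonsense-mediated decay kind for 25 of the 37 tested members (67.6%), against 28% of the 11898 tested genes found there as coding genes. A retained-intron transcript was listed for 28 of the 37 (75.7%), against 58.3% of those genes.

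The promoters of 4 members are shown because the results turn on them: the SR, hnRNP and kinase genes with the smallest p, and Clk4, the member that rose. Each is the 250 bases before the start of transcription from RefSeq (build GRCm38.p6), written 5′ to 3′ on the gene's strand, with motif matches in capitals. They lie at chr11:88047123-88047372 (plus strand) for Srsf1, chr6:51469895-51470144 (minus strand) for Hnrnpa2b1, chr17:28622522-28622771 (minus strand) for Srpk1 and chr11:51262864-51263113 (plus strand) for Clk4.
Srsf1: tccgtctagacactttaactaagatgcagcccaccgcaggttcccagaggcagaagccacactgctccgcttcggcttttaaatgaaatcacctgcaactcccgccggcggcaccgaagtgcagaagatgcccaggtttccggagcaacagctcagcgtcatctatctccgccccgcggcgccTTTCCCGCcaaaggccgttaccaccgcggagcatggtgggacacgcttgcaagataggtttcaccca
Hnrnpa2b1: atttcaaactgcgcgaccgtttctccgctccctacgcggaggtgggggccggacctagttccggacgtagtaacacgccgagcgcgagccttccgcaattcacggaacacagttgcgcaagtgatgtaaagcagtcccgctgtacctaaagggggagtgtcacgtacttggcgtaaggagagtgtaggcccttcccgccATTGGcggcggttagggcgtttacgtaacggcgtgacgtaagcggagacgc
Srpk1: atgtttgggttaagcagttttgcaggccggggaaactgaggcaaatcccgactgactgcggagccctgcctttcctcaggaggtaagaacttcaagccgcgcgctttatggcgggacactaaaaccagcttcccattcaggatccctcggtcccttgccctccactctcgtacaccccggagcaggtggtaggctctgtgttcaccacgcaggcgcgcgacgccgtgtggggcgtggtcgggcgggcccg
Clk4: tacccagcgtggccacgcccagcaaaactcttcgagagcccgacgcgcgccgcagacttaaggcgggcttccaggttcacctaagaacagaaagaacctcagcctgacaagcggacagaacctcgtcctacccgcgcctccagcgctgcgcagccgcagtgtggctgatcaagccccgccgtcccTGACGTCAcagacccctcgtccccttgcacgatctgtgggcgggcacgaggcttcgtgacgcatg
The motifs searched, on both strands, were the E2F site (TTTCCCGC, TTTGGCGC, TTTCGCGC or TTTGCCGC), the CCAAT box (CCAAT), the cyclic AMP response element (TGACGTCA), the glucocorticoid response element and the Ets site (CCGGAAGT). The capitals mark an E2F site in Srsf1, a CCAAT box on the other strand in Hnrnpa2b1 and a cyclic AMP response element in Clk4. These letters do not occur in the Srpk1 window. Of the 37 tested members 35 had a promoter in the table, all but Clk1 and Hnrnpul2. An E2F site was found for 5 of the 35 (Srsf1, Srsf10, Tra2b, Hnrnpr and Hnrnpul1; 14.3%), against 2.16% of all 27025 genes with a promoter. A CCAAT box was found for 19 (54.3%), against 37.5% of genes, an Ets site for 5 (14.3%, against 3.23%), a cyclic AMP response element for 2 (Clk4 and Tra2a; 5.71%, against 1.77%) and a glucocorticoid response element for 0, against 0.0111% of genes. These shares are a description. The upstream bases of the members were also richer in G and C (median 62%) than those of all genes (52.4%).

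Libraries held 26119459 to 33559312 counts over genes, and all values below are CPM, read counts as a rate of the library total, after TMM scaling, which corrects for differences in library composition. Bulge markers were high in both diets, with a mean log2 CPM over 10 markers of 9.65 to 9.76 in DR and 9.89 to 10.2 in AL. Of the 10, 5 fell in DR and 0 rose: Cd34, the gene of a sort antigen (log2 fold change -1.18, edgeR adjusted p = 0.016), Krt5 (-0.91), Krt14, Krt15 and Sox9. Of other cells, the 6 dermal fibroblast markers summed to 19.8 to 40.5 CPM in DR and 74.0 to 123 CPM in AL, with Lum and Col3a1 near 0 in both. Of these, Col1a1 and Col1a2 fell and carried the sum, while Pdgfra rose at a low level (log2 fold change 1.49, edgeR adjusted p = 0.0134) and Dcn did not pass. The 5 immune markers summed to 5.86 to 32.9 CPM in DR and 2.22 to 28.4 in AL, the 4 endothelial markers to 4.22 to 34.7 in DR and 2.15 to 17.0 in AL, and the 6 melanocyte markers, with Tyr and Mlana near 0, to 124 to 176 in DR and 111 to 230 in AL. Nearly all of the melanocyte sum was Mitf, which did not pass, while Dct (-2.17) and Tyrp1 (-2.13) fell at low levels. All 18 markers of the G2 and M phases fell in DR. Their mean log2 CPM was 0.39 to 1.35 in the DR libraries, 2.44 in AL replicate 5 and 4.26 to 5.14 in the other AL libraries. In pools of sorted cells, fewer cells of a type and less RNA per cell cannot be told apart, and the part of these markers in the results below was not tested.

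The members fell more often than they rose. Of 37 members tested, 13 fell in DR (35.1%) and 1 rose (2.7%), by edgeR's quasi-likelihood test at an adjusted p under 0.05 over all genes. Among all 15447 tested genes 40.7% passed, 21.7% lower and 19% higher in DR, so the members passed about as often as other genes (37.8%) and their calls were nearly all in one direction. The changes were small. Only Srsf12, Srsf1 and Hnrnpa2b1 passed with a change of at least 1.5-fold, against 24% of all genes, and only Srsf12 with one of at least 2-fold, against 11.5%. The median log2 fold change was -0.18 for the members, of which 25 lay below 0, and -0.02 for all tested genes. It was -0.07 without DR replicate 2 and -0.11 without AL replicate 4. DR and AL libraries were fully apart for 10 members (all genes: 32.9%). Most members were abundant, with 33 at or above a mean log2 CPM of 5, a level chosen after the values were seen. Of these 33, 11 passed, all but Clk4 lower in DR. Of the 5865 genes at that level 46.3% passed, 29.4% higher and 16.8% lower in DR. With AL replicate 2 left out 9 members passed, 8 lower and 1 higher. With DR replicate 2 left out 10 passed, 8 lower and 2 higher.

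**Figure D1:**
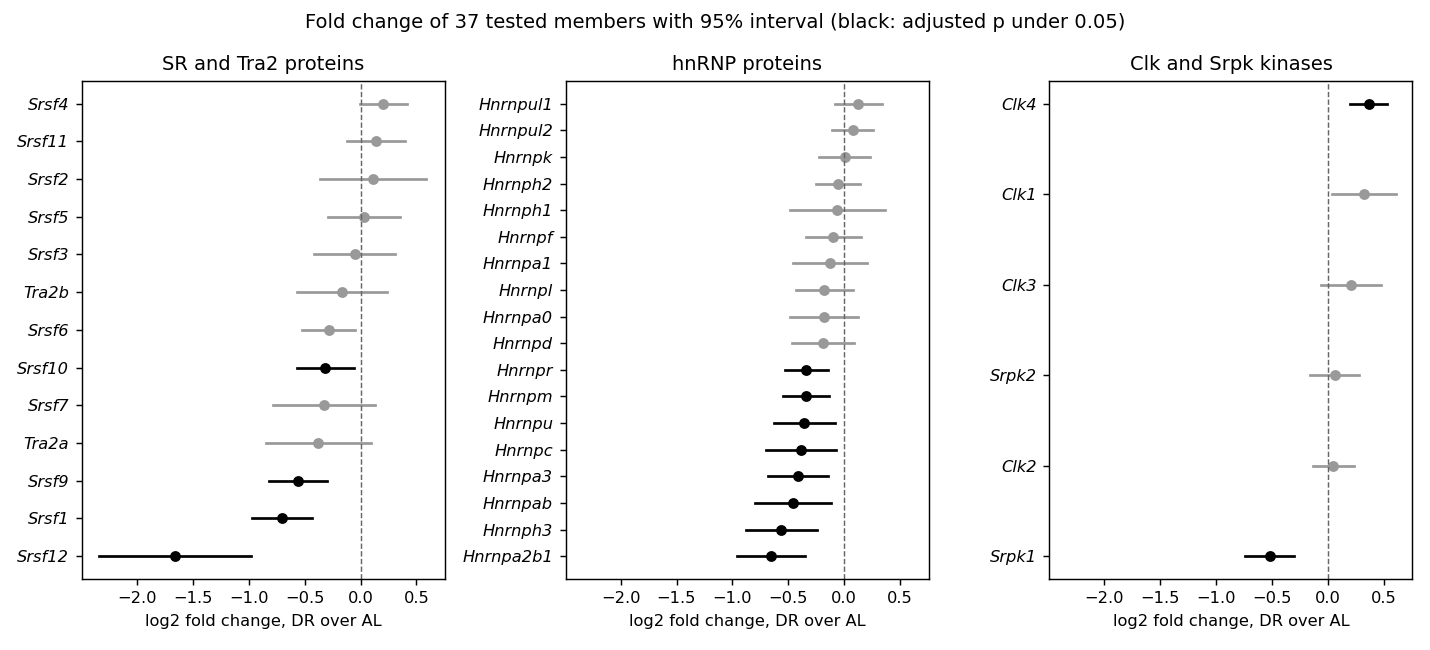
Log2 fold change of DR over AL for the 37 tested members, by class, with the 95% interval of edgeR's quasi-likelihood fit as a line; black members passed at an adjusted p under 0.05 and grey ones did not. Srsf12 (-1.66) lies far to the left of the other SR genes, 8 hnRNP genes lie below 0 in black, and Clk4 (0.36) is the black member to the right of 0.

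Among SR proteins the clearest fall was that of Srsf1, known as SF2/ASF, a founding member of the family that activates many exons and acts as an oncogene when overproduced. Srsf1 stood at 162, 145, 137 and 154 CPM in DR replicates 1 to 4, against 222, 299, 248, 256 and 196 CPM in AL replicates 1 to 5. Every DR library was below every AL library. The mean was 149.8 ± 10.7 CPM in DR and 244 ± 38.7 CPM in AL (SD, n = 4 and 5), 38.7% lower in DR. This is a log2 fold change of -0.71, with SE 0.12 and an edgeR adjusted p of 0.00113.

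Srsf12, a divergent SR protein that in human cells was described as a repressor of splicing, had the largest change of all members at a very low level. It had 1.44, 0.718, 0.752 and 1.39 CPM in the DR libraries, against 3.11, 4.35, 3.45, 4.15 and 1.92 CPM in the AL libraries, with no overlap. AL replicate 5 was closest to DR. The log2 fold change was -1.66 (SE 0.31, edgeR adjusted p = 0.00169), and -1.81 without AL replicate 5.

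Srsf9, a short-tailed SR protein close to Srsf1, had 27.3, 23.2, 28.9 and 20.6 CPM in DR, against 33.1, 38.9, 42.0, 36.0 and 34.2 CPM in AL. The diets did not overlap here either. It fell by 0.56 on the log2 scale (SE 0.12, edgeR adjusted p = 0.00313), 32.2% lower in DR.

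Srsf10, which represses splicing once dephosphorylated, as after heat shock, had 54.5, 51.7, 47.7 and 50.3 CPM in DR, against 58.7, 76.1, 62.6, 69.8 and 50.2 CPM in AL. AL replicate 5 lay among the DR libraries and the others above them. Its fall of 0.31 on the log2 scale (SE 0.11, edgeR adjusted p = 0.048) was just inside the threshold. Without AL replicate 5 the adjusted p was 0.00847. The call was lost without any other library: the adjusted p was 0.0539, 0.121, 0.075 and 0.0927 without AL replicates 1 to 4, and 0.0562, 0.0859, 0.133 and 0.102 without DR replicates 1 to 4. On all libraries it was also lost with DESeq2 size factors (0.0562), no filter (0.0603) and the DESeq2 Wald test (0.0506). Of its 51-base windows, the length of a read, 12.5% also occur in other annotated genes.

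Srsf6, which like Srsf4 carries a long tail, lay just outside. It had 322, 274, 261 and 324 CPM in DR, against 343, 404, 337, 384 and 333 CPM in AL, so the diets did not overlap, and its log2 fold change was -0.29 (SE 0.11, edgeR adjusted p = 0.0512). It passed without AL replicate 5 (0.0431) or DR replicate 1 (0.0472). On all libraries it passed in 5 of 7 alternatives: limma-voom with quality weights (0.0295), library size as the sole scaling (0.0314), the DESeq2 Wald test (0.0344), a stricter filter (0.0486) and a replicate block (0.0489).

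The remaining SR genes, which include the classical exon activators Srsf2 (SC35) and Srsf3, did not pass. Srsf2 had 769, 370.3, 443 and 622 CPM in DR, against 399, 472, 454, 644 and 585 CPM in AL. Its DR libraries spanned the whole AL range, and the 95% interval of the log2 fold change, -0.37 to 0.59, includes a change of either sign. Srsf3, which also exports messenger RNA, had 352, 235, 254 and 338 CPM in DR, against 248, 305, 258, 384 and 332 CPM in AL (interval -0.41 to 0.31). Srsf5, known to be induced by insulin in rat liver cells, had 500.4, 362, 406 and 553 CPM in DR, against 397, 480.05, 367, 496 and 485 CPM in AL (interval -0.29 to 0.36). Tra2b, an activator with tails on both sides of its RNA-binding domain, had 86.6, 56.0, 68.8 and 78.9 CPM in DR, against 65.6, 74.4, 68.4, 119 and 79.0 CPM in AL (interval -0.57 to 0.24). For all of them the diets overlapped widely. The log2 fold changes of Tra2a (-0.38), Srsf7 (-0.32), Srsf11 (0.13) and Srsf4 (0.20) had edgeR adjusted p-values of 0.112 to 0.389. Without DR replicate 2, Srsf4 passed (0.28, adjusted p = 0.0409). Values of Srsf4 are uncertain, since 65.3% of its 51-base windows also lie in the annotated gene Gm12992. The same holds for 31.7% of the windows of Srsf2, mostly shared with Mettl23, for 31.2% of Srsf3, mostly shared with Gm12355, and for 23.3% of Srsf5 and 17.5% of Tra2b, shared with pseudogenes.

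The hnRNP genes held most of the calls, with 8 of 18 tested lower in DR (44.4%, against 21.7% of all genes) and 0 higher. These leave out Hnrnpdl and Hnrnpll, which the symbol rule missed because they are listed as Hnrpdl and Hnrpll. Both were counted among the other splicing regulators below, and neither passed (-0.27 and 0.02, edgeR adjusted p = 0.171 and 0.868). The summed level of the 19 hnRNP members, without Hnrnpdl and Hnrnpll, was 3537 to 4420 CPM in DR and 4363 to 5582 CPM in AL. The A/B group, which binds exonic and intronic silencers, gave 3 of the calls. Hnrnpa2b1, which in human cells also sorts small RNAs into exosomes, had 650.4, 448, 472 and 547 CPM in DR, against 749, 912, 792, 962 and 754 CPM in AL. No DR library reached the lowest AL library. Its mean was 529 ± 90.9 CPM in DR and 834 ± 97.1 CPM in AL (SD, n = 4 and 5). It fell by 0.66 on the log2 scale (SE 0.14, edgeR adjusted p = 0.00353).

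Hnrnpa3, a relative of Hnrnpa2b1, had 72.9, 54.4, 66.4 and 74.3 CPM in DR, against 88.4, 99.99, 87.7, 98.3 and 71.1 CPM in AL. AL replicate 5 lay among the DR libraries. It fell by 0.41 on the log2 scale (SE 0.12, edgeR adjusted p = 0.0199). Its call was lost when AL replicate 2 was left out (0.0509), or DR replicate 2 or 3 (0.0566 and 0.0534), and 27.7% of its windows occur in other genes, many of them pseudogenes.

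Hnrnpab, which binds RNA and also single-stranded DNA, had 209.97, 145, 224 and 199 CPM in DR, against 222, 266, 265, 341 and 241 CPM in AL. Only DR replicate 3 reached into the AL range. It fell by 0.46 on the log2 scale (SE 0.15, edgeR adjusted p = 0.0337). The call was lost when AL replicate 2, 3 or 4 was left out (adjusted p 0.0604, 0.0572 and 0.0642), or DR replicate 2 or 4 (0.0873 and 0.0693). Of its windows, 23.7% also occur outside it, mainly in Phykpl.

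Outside the A/B group, Hnrnph3, an H-type protein that binds runs of guanines, had 11.5, 8.29, 9.36 and 10.8 CPM in DR, against 13.4, 15.2, 12.7, 14.4 and 18.3 CPM in AL. Hnrnpr, which in motor neurons travels into axons, had 51.4, 54.8, 59.3 and 57.7 CPM in DR, against 66.2, 80.1, 74.3, 69.0 and 63.5 CPM in AL. Hnrnpm, a regulator of the epithelial to mesenchymal splicing switch in human breast cells, had 194, 184, 197 and 209.7 CPM in DR, against 221, 272, 242, 274 and 232 CPM in AL. In each of these genes all DR libraries were below all AL libraries. Hnrnph3 fell by 0.56 on the log2 scale (SE 0.14, edgeR adjusted p = 0.00965). Hnrnpr fell by 0.34 (SE 0.09, adjusted p = 0.00999). Hnrnpm fell by 0.34 as well (SE 0.09, adjusted p = 0.0138). Of the windows of Hnrnpm, 21.6% also occur outside it, chiefly in the neighbour listed as March2.

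Hnrnpu, a scaffold protein of the nuclear matrix, had 512, 401, 422 and 435 CPM in DR, against 509, 605, 518, 686 and 517 CPM in AL, where DR replicate 1 overlapped AL. It fell by 0.36 on the log2 scale (SE 0.12, edgeR adjusted p = 0.0392). Leaving out AL replicate 2 or 4 (adjusted p 0.085 and 0.0751) or DR replicate 2, 3 or 4 (0.106, 0.11 and 0.0891) ended that call. On all libraries it was also lost with no filter (0.0585) and with a replicate block (0.0527).

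Hnrnpc, which in human cells guards against Alu elements being spliced in as exons, had 101, 83.2, 104 and 129 CPM in DR, against 114, 132, 126, 168 and 141 CPM in AL. DR replicate 4 lay inside the AL range. It fell by 0.39 on the log2 scale (SE 0.14, edgeR adjusted p = 0.0475). The call held without AL replicate 1 or DR replicate 4 and was lost without AL replicates 2 to 5 (adjusted p 0.0779, 0.0584, 0.0938 and 0.0677) or DR replicates 1 to 3 (0.0934, 0.131 and 0.111). On all libraries it was also lost with DESeq2 size factors (0.0607), no filter (0.0608) and limma-voom with quality weights (0.0632). As a count, 4 hnRNP genes passed when AL replicate 2 or DR replicate 2 was left out, and 5 when AL replicate 4 or DR replicate 3 was.

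Among hnRNP genes that did not pass, Hnrnpk, which binds cytosine-rich RNA and DNA, was nearly level. It had 216, 211, 244 and 267 CPM in DR, against 209.8, 235, 239, 266 and 219.8 CPM in AL. The 95% interval of its log2 fold change ran from -0.23 to 0.23. Hnrnpa1, the best known member of the A/B group, had 22.4, 16.2, 16.2 and 23.3 CPM in DR, against 19.8, 24.5, 17.3, 24.2 and 21.1 CPM in AL (interval -0.46 to 0.20). Its value is uncertain, since 46.6% of its windows occur in other annotated genes, most of them pseudogenes, and a read that maps to several places may not have been counted. The same holds for Hnrnpf, with 61.7% shared windows, and to a lesser degree for Hnrnpk (25.4%) and Hnrnph2 (15.6%). The remaining genes Hnrnpa0, Hnrnpd, Hnrnpf, Hnrnph1, Hnrnph2, Hnrnpl, Hnrnpul1 and Hnrnpul2 had log2 fold changes of -0.19 (Hnrnpd) to 0.13 (Hnrnpul1), with edgeR adjusted p-values of 0.238 to 0.824. Hnrnpa1l2-ps had 0 counts in every DR library and 0, 1, 0, 2 and 1 counts in AL replicates 1 to 5 and was not tested.

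**Figure D2:**
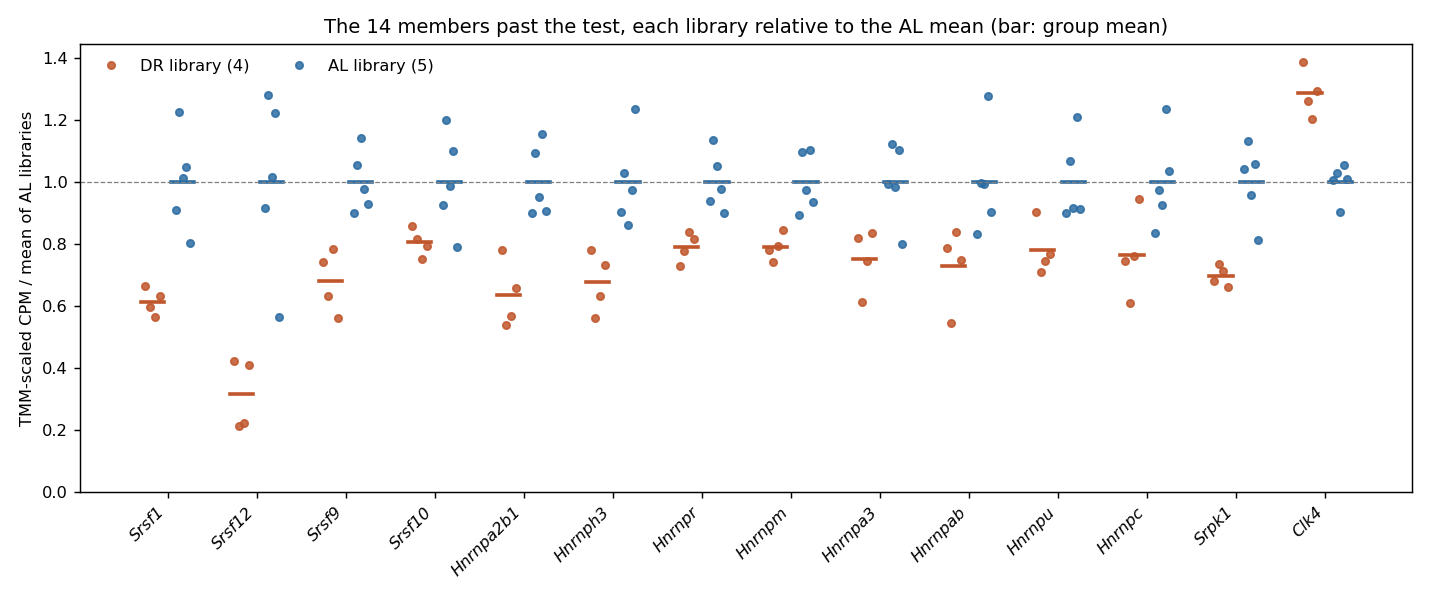
Level of the 14 members that passed, in each library, as TMM-scaled CPM divided by the mean of the AL libraries (vertical axis from 0); points are libraries, DR left of AL for each gene, and short bars are group means. For Srsf1, Srsf12, Srsf9, Hnrnpa2b1, Hnrnph3, Hnrnpr, Hnrnpm and Srpk1 all DR points lie below all AL points, and for Clk4 all lie above.

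The kinases parted. Srpk1, the main cytoplasmic SR kinase in many cells, had 73.1, 79.1, 76.5 and 71.1 CPM in DR, against 112, 122, 103, 114 and 87.3 CPM in AL. Every DR library was below AL replicate 5, the lowest of AL. The mean was 74.9 ± 3.55 CPM in DR and 108 ± 13.1 CPM in AL (SD, n = 4 and 5), 30.3% lower in DR. It fell by 0.52 on the log2 scale (SE 0.10, edgeR adjusted p = 0.00195).

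Its close relative Srpk2, best known from the nervous system, had 148, 162, 137 and 137 CPM in DR, against 147, 136, 127, 127 and 163 CPM in AL. The diets overlapped fully, and the log2 fold change was 0.06 (95% interval -0.16 to 0.28). The intervals of Srpk1 (-0.74 to -0.30) and Srpk2 did not meet, but the difference between them was not tested.

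Clk4, a nuclear kinase of SR proteins, was the member that rose. It had 116, 106, 101 and 109 CPM in DR, against 84.5, 86.1, 75.8, 88.5 and 84.6 CPM in AL, with every DR library above every AL library. The log2 fold change was 0.36 (SE 0.08, edgeR adjusted p = 0.00334), 1.29-fold higher in DR.

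Clk1, the closest relative of Clk4, whose activity is known to rise when the temperature of the cell falls, had 687, 588, 527 and 703 CPM in DR, against 464, 499, 417, 586 and 538 CPM in AL. AL replicates 4 and 5 lay above DR replicate 3, the lowest of DR, and below the other DR libraries. Its log2 fold change was 0.32 (SE 0.13) and did not pass (edgeR adjusted p = 0.0689). It passed without AL replicate 4 (0.0405) or DR replicate 3 (0.0426), and on all libraries in the DESeq2 Wald test (0.0343), limma-voom with quality weights (0.0445) and a replicate block (0.032). Clk3 (0.20, adjusted p = 0.206) and Clk2 (0.05, adjusted p = 0.689) did not pass. Clk3 shares 31.6% of its windows with other genes, chiefly its neighbour Edc3, and it passed without AL replicate 4 (0.31, adjusted p = 0.0259). Without that library 4 kinase genes passed, 3 higher and 1 lower.

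Within each diet, several members varied widely between libraries. The within-diet SD of the log2 level was 0.38 for Srsf2, 0.37 for Tra2a, 0.36 for Srsf7, 0.32 for Hnrnph1, 0.31 for Tra2b, 0.27 for Srsf3 and 0.24 for Srsf5. The median was 0.19 over the members, 0.21 over all tested genes and 0.16 over genes averaging 5 or more in log2 CPM, of which 92.7% varied no more than Srsf2. These 7 genes were picked after their values were seen, for being high and low in the same libraries, so their likeness is a description. Srsf12 (0.39), Hnrnpab (0.25) and Hnrnpa1 (0.24) varied as much as some of them and were left out. Srsf12 was lowest of AL in AL replicate 5, and Hnrnpab in DR replicate 1 was below its mean over all libraries, unlike the 7. Hnrnpa1 shared the pattern of the 7. It was above its mean over all libraries in DR replicate 1 and AL replicates 4 and 5, and below it in DR replicates 2 and 3 and AL replicates 1 and 3. Srsf7, itself held in check by a poison exon, had 273, 139, 168 and 221 CPM in DR and 198, 238, 209, 331 and 278 CPM in AL. Tra2a, the partner of Tra2b, had 224, 136, 145 and 169 CPM in DR and 182, 196, 157, 323 and 239 CPM in AL. DR replicate 1 and AL replicate 4 were high and DR replicates 2 and 3 and AL replicate 3 low. Hnrnph1, a guanine-run binder like Hnrnph3, had 1031, 631, 619.6 and 878 CPM in DR and 733, 809, 629, 1054 and 895 CPM in AL.

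Over all 37 tested members, AL replicate 4 was the highest AL library for 21 and DR replicate 2 the lowest DR library for 21, whereas over all tested genes the shares were 19.7% and 24.1%. Markers of suprabasal keratinocytes, the differentiating cells above the basal layer, varied over the same libraries. Their mean log2 CPM over 5 markers, none of them changed by diet, was 6.41, 7.25, 8.02 and 7.46 in DR replicates 1 to 4, against 7.75, 7.70, 7.92, 6.48 and 6.04 in AL replicates 1 to 5. They were lowest in DR replicate 1 and in AL replicates 4 and 5, where Srsf2, Srsf7 and Tra2a were high. The other DR libraries did not follow this order. DR replicate 2 was next lowest of DR in these markers, yet Srsf2, Srsf7 and Tra2a had their lowest DR values there (370, 139 and 136 CPM). DR replicate 4 had more of the markers than DR replicate 2, and also more of these genes (622, 221 and 169 CPM). The summed level of those markers was 1436 to 4559 CPM in DR and 1348 to 4054 CPM in AL, and their part in the spread of the splicing genes was not tested.

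**Figure D3:**
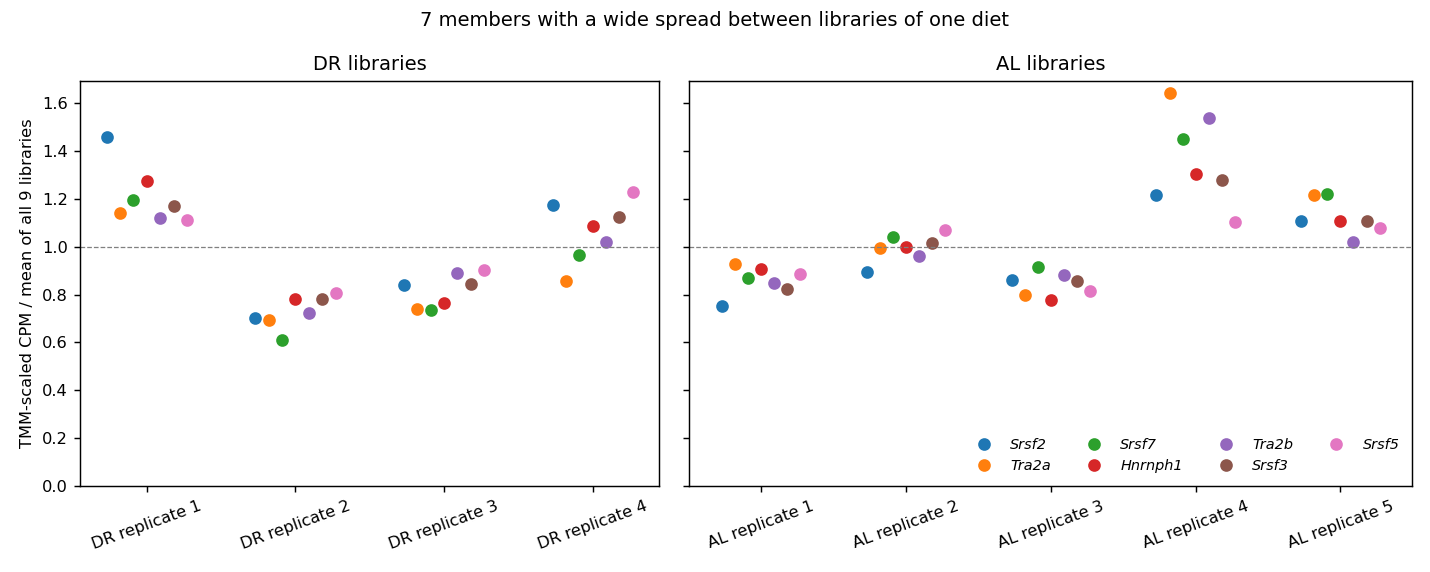
Level of 7 members with a wide spread in each DR (left) and AL (right) library, as TMM-scaled CPM divided by the gene's mean over all 9 libraries; each colour is a gene. All 7 points lie above 1 in DR replicate 1, AL replicate 4 and AL replicate 5 and below 1 in DR replicates 2 and 3 and AL replicates 1 and 3.

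Cell division markers were lower in DR, as were the members that fell. AL replicate 5, the AL library lowest in G2 and M phase markers, was the lowest AL library for 6 of the 13 members that fell, namely Srsf1, Srsf10, Srsf12, Hnrnpa3, Hnrnpr and Srpk1. Of all genes that fell, 38.9% had their lowest AL value there. AL replicate 1, with a G2 and M phase mean of 4.26, was the lowest AL library for 6 others (Srsf9, Hnrnpa2b1, Hnrnpab, Hnrnpc, Hnrnpm and Hnrnpu), against 18.2% of all genes that fell. Without AL replicate 5, 12 of the 13 still passed, all but Hnrnpc, with log2 fold changes of -0.78 for Srsf1, -0.69 for Hnrnpa2b1 and -0.59 for Srpk1. The part of cell division in these changes was not tested.

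Other splicing genes did not share one direction. Of 53 core spliceosome genes 15 rose and 10 fell (47.2% passed, against 40.7% of all genes); with library size as the sole scaling 10 rose and 11 fell. Those that fell included the U1 protein gene Snrpa (11.1 ± 0.575 CPM in DR and 22.4 ± 2.21 CPM in AL, SD, n = 4 and 5; log2 fold change -1.02, edgeR adjusted p = 6.12e-05) and those that rose the genes of the splicing proteins Xab2 (0.63) and Crnkl1 (0.65) and of the helicase Dhx8 (0.55). Grouped after the values were seen, 6 of 12 Snrp genes with Snrnp70, which encode some proteins of the small nuclear particles, fell and 0 rose. All 7 RNA helicase genes of the list, with the particle gene Snrnp200 among them, rose by 0.21 to 0.67 on the log2 scale. Dhx15 (0.67) and Dhx38 (0.52) were among the helicases, and Snrpd2 (-0.78) and Snrpd3 (-0.61) among the Snrp genes. Of other particle proteins on the list, Prpf6 (0.35), Sf3b1 (0.38) and Prpf4 (0.24) rose, while Prpf31 (-0.38) and Sf3a1 (-0.27) fell. Helicase genes of the lists below did not rise: Ddx39b (-0.13), Upf1 (-0.11) and Eif4a3 (-0.01) had edgeR adjusted p-values of 0.348, 0.552 and 0.956.

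Of 39 other RNA-binding regulators of splicing, 6 rose and 8 fell. Tardbp, which encodes TDP-43, a repressor of cryptic exons, fell to 94.1 ± 9.56 CPM in DR, against 159.8 ± 17.3 CPM in AL (log2 fold change -0.76, edgeR adjusted p = 3.07e-04). Khdrbs3 fell by 2.05 on the log2 scale at 0.392 ± 0.0902 CPM in DR and 1.62 ± 0.953 CPM in AL. The polypyrimidine tract proteins Ptbp3 (listed as Rod1; 0.59) and Ptbp2 (0.63) rose. Cirbp, an RNA-binding protein known to be induced by cold, rose by 0.59 (edgeR adjusted p = 0.0106) and was singled out after its value was seen. Rbm3 of the same list did not pass (0.23, edgeR adjusted p = 0.345), and its diets overlapped.

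Many SR-related proteins of nuclear speckles carry arginine and serine stretches without being classical SR proteins. Of 32 genes on the list of such speckle proteins, 10 rose and 1 fell (31.2% higher, against 19% of all genes). Of the 32, 30 lay at or above a mean log2 CPM of 5, where 29.4% of genes were higher in DR. Sfswap (0.68, edgeR adjusted p = 1.61e-04), Cdk11b (0.57) and Scaf11 (0.54) rose and Zranb2 fell by 0.79 on the log2 scale. With library size as the sole scaling 6 rose and 1 fell, and the same counts came without AL replicate 3. Of 19 genes of nonsense-mediated decay and the exon junction complex, 3 rose and 3 fell. Upf2, a core decay factor (0.58, edgeR adjusted p = 2.80e-04), Smg1, the kinase of Upf1 (0.53), and its partner Smg8 (0.42) rose. The partner Smg9 fell by 0.37 on the log2 scale. Upf3a (-0.24, edgeR adjusted p = 0.0459) and Upf3b (-0.30, edgeR adjusted p = 0.0477) fell as well. Smg8 was lost with library size as the sole scaling (adjusted p = 0.0593), and Smg9 when DR replicate 3 or 4 was left out (0.0593 and 0.0503). With DR replicate 3 left out the list had 3 calls, all higher, and with DESeq2 size factors 5 rose and 1 fell.

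**Figure D4:**
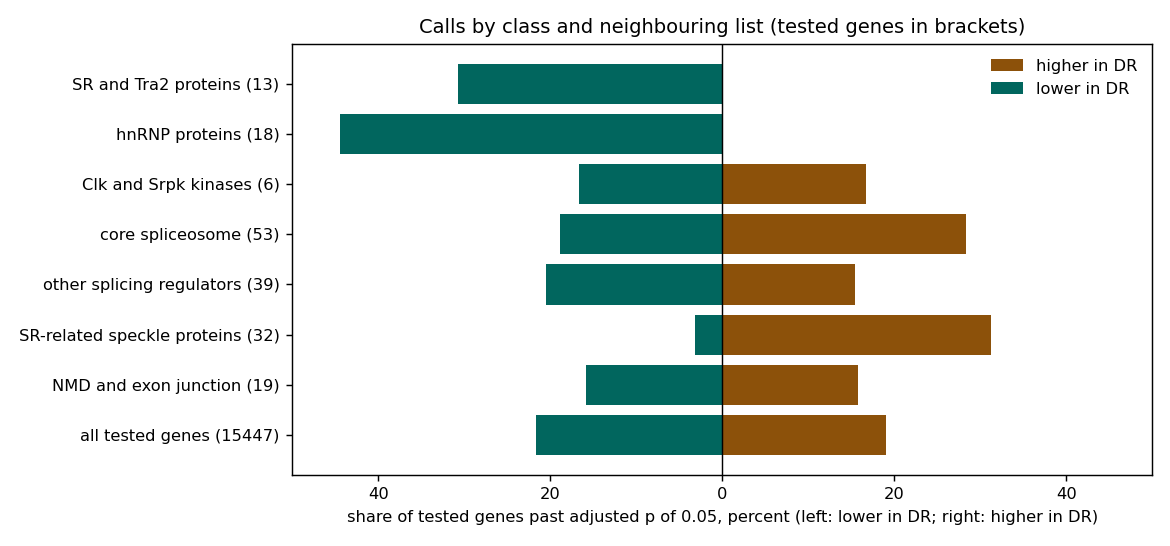
Share of tested genes that passed at an adjusted p under 0.05, lower in DR to the left and higher in DR to the right, for the 3 member classes, 4 neighbouring lists and all tested genes; the number tested stands in brackets. The SR and hnRNP bars (30.8% and 44.4%) extend to the left alone, the speckle protein bar mainly to the right (31.2% higher, 3.12% lower), and all genes stand at 21.7% lower and 19% higher.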

How the data were processed

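The authors deposited, for each library, raw counts of reads for every gene symbol. RNA of sorted cells was made into TruSeq RNA v2 libraries and read as single reads of 51 cycles, per the labels' protocols. Reads were processed, per the submitters' processing notes, with HTSeq 0.11.2, TopHat2 2.1.0, FastQC 0.11.5 and Bowtie on the mm9 build. Not given in the sources used here: the annotation, the strand setting and how reads with several matches were treated. The kit does not mark strand, so reads of overlapping antisense genes cannot be told apart by strand. How such reads were counted is not known here. Lines that name no gene (6 per file, 25.9% to 30.7% of reads) were left out, which left 35006 symbols. Non-unique alignments were 10.4% to 13.6% of reads.

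Counts were tested with edgeR 4.0.16 in R 4.3.3: filterByExpr by diet, TMM, and a quasi-likelihood fit on diet with Benjamini-Hochberg adjustment over 15447 genes. Standard errors follow from the F statistic and intervals are 95%. Marker means used log2(CPM + 0.5). The test was tested on simulated counts. Members, lists and named genes were chosen with earlier results of these data known; of each class up to 6 members with the smallest p past the threshold and 15 listed members were given in full, and of each neighbouring list up to 4 genes. Srsf6, Srsf7, Tra2a, Hnrnph1, Cirbp, Rbm3, Hnrnpdl, Hnrnpll, Upf3a, Upf3b and the helicase and particle genes beyond that rule were added after their values were seen. An older name was used for 8 list symbols and 1 had no match. The alternatives were DESeq2 1.42.0 size factors and Wald test, library size only, other filters, limma 3.58.1 voom with quality weights, a replicate block and leaving out each library. Chi-square per degree of freedom was 26.4 to 118 between libraries of a diet, so none was a copy. Shared windows were counted as exact 51-base matches, on either strand, between the coding transcripts of a member and all other genes of GENCODE M21.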

Additional observations from a re-analysis of the deposited data

Results flagged for a closer look

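In 74 checks (37 tested members in each diet) for a single library that stands apart from its group, 2 values were past the limit of Dixon's gap test, where chance gives about 1 in 20 (3.7). Both were in AL replicate 4. Clk3 stood at 85.74 CPM there, against 59.4 to 65.3 CPM in the other AL libraries. Tra2b stood at 119.1 CPM there, against 65.6 to 79.0 CPM in the others.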

How the results depend on the processing

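Of the 14 called members, 9 passed in all 16 alternatives (Srsf1, Srsf9, Srsf12, Hnrnpa2b1, Hnrnph3, Hnrnpm, Hnrnpr, Srpk1 and Clk4) and 5 did not in some (Srsf10, Hnrnpa3, Hnrnpab, Hnrnpc and Hnrnpu). Of the 23 uncalled, 19 passed in none and Srsf4, Srsf6, Clk1 and Clk3 in some. The called Srsf10 and Hnrnpc passed in 5 and 6 of the 16, fewer than the uncalled Srsf6 (7). Leaving out 1 library gave 9 to 14 called members, 4 to 8 hnRNP genes, 2 to 4 kinase genes, 7 to 10 speckle genes and 3 to 7 decay genes; the other 7 alternatives gave 11 to 15 members. Library size only gave 7 speckle genes, and for Clk2 (-0.024), Hnrnpk (-0.063) and Srsf5 (-0.033) the opposite sign. Leaving out libraries also turned uncalled signs: Hnrnph1 ran from -0.21 to 0.053, Hnrnph2 from -0.12 to 0.0017, Hnrnpk from -0.063 to 0.053, Srsf2 from -0.093 to 0.26, Srsf3 from -0.15 to 0.045, Srsf5 from -0.072 to 0.13 and Tra2b from -0.26 to 0.012. The cause was not tested. With the replicate number as a block 15 members passed, Clk1 and Srsf6 were gained, Hnrnpu was lost (0.0527) and Hnrnpk had -0.020; same-numbered libraries correlated by 0.0289 to 0.228 in their deviations, so the numbers were not taken as pairs. The smallest change called among the members was that of Srsf10 (-0.31), and smaller ones can be missed with 4 and 5 libraries.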
